A study of Homo sapiens with 48 samples.

Results

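Of the 59855 regions that carried H3K27ac in vehicle-treated L3.6pl cells, 4558 (7.62%, exact 95% interval 7.40 to 7.83) shared no base with a H3K27ac peak after any of the 4 cytokine treatments. These vehicle-only peaks were selected on presence and absence in the peak lists themselves: a peak of the vehicle list on chromosomes 1 to 22 or X was taken if it overlapped, by 1 bp, none of the lists made after 30 min or 6 h of TNFα or TWEAK. The other 55297 vehicle peaks, which recurred in at least 1 treated list, served as comparison. The vehicle-only peaks were short and weak and lay mostly in introns and between genes. They met the AP-1 factor FOSL1 less often than other vehicle peaks of like size. RELA or RELB met 78 of them (1.71%), against 10.9% of all vehicle peaks, and 64 of the 78 lay in tandem repeats. By list, tandem repeats held 22.6% to 96.0% of the other vehicle peaks with RELA or RELB.

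L3.6pl is an established human cell line of pancreatic ductal adenocarcinoma. Chromatin immunoprecipitation with sequencing (ChIP-seq) had been carried out for H3K27ac, RELA and RELB in cells given vehicle (PBS), TNFα or TWEAK for 30 min or 6 h, and for FOSL1 in vehicle alone, 48 samples in 16 conditions of 3 replicates. The replicates of a condition had been merged into 1 list of peaks, 392221 peaks in all 16 lists, so a region has 1 value per condition and no spread between replicates, and for RELA at 30 min of TNFα the peak names leave unsettled whether all 3 replicates were merged. All groups are 1 cell line with no genetic change, and how long the vehicle was applied is not given in the sources used here. The check of the cell type was a coarse one: 29 of 30 epithelial genes had a vehicle H3K27ac peak in the gene or 10 kb on either side, against 19 of 25 marker genes of blood, endothelial, neural, muscle and islet cells. Of all 19962 protein-coding genes, 16381 had such a peak, so its presence at a gene says little about cell type.

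Acetylation of lysine 27 on histone H3 is laid down by p300 and CBP and marks active promoters and enhancers, from which it is removed by histone deacetylases. TNFα acts mainly through the canonical NF-κB pathway, which sends RELA with p50 to the nucleus within minutes, whereas TWEAK stabilizes the kinase NIK and, more slowly, releases RELB with p52. FOSL1 (FRA-1) is a FOS family member of the AP-1 complex, pairs with JUN proteins. Its complex reads the palindrome TGANTCA.

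Among the vehicle-only peaks, the strongest FOSL1 binding is shown first, with the sequence around the FOSL1 summit. The 200 bp around the FOSL1 summit are printed for 4 of the 5 vehicle-only peaks with the highest FOSL1 fold enrichment, each named by its nearest start of a protein-coding gene. They are read 5′ to 3′ on the + strand of hg38, and capitals mark the AP-1 motif TGANTCA, searched on both strands. They lie at chr2:91766506-91766705 (AQP7B), chr3:44104997-44105196 (TOPAZ1), chr5:133240565-133240764 (HSPA4) and chrX:129698269-129698468 (XPNPEP2). At each of these 4, the FOSL1 summit lay outside the vehicle-only peak. The windows at AQP7B, HSPA4 and XPNPEP2 shared no base with their vehicle-only peak, and the window at TOPAZ1 overlapped only its edge.
AQP7B: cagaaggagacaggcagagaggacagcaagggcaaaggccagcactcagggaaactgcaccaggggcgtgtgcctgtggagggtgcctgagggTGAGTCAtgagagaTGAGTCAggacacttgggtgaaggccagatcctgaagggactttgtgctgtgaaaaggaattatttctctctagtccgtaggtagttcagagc
TOPAZ1: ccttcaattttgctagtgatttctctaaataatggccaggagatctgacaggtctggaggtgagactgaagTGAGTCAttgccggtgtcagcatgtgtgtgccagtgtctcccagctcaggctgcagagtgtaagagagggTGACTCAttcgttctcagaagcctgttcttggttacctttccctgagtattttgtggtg
HSPA4: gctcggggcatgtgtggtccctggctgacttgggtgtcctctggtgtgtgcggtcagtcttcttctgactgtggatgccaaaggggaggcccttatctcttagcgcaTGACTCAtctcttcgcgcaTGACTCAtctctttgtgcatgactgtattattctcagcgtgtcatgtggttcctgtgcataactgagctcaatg
XPNPEP2: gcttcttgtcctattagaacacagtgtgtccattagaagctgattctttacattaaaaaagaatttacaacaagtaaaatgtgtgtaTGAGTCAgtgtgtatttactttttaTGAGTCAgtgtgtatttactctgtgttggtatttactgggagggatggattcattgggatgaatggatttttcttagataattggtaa

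Each of these 4 windows held 2 copies of the motif. The centre of the first copy on the + strand lay 4 bp before the FOSL1 summit at AQP7B and 26 bp before it at TOPAZ1. It lay 10 bp after the summit at HSPA4 and 10 bp before it at XPNPEP2. The FOSL1 fold enrichment was 23.1 at AQP7B, 20.7 at TOPAZ1, 19.9 at HSPA4 and 19.4 at XPNPEP2. In contrast, the H3K27ac fold enrichment of the vehicle-only peaks beside these summits was 2.56 at AQP7B, 2.66 at XPNPEP2, 2.81 at TOPAZ1 and 2.93 at HSPA4. The last 2 were above the upper quartile of all vehicle-only peaks (2.79). The TOPAZ1 region lay alone, 130064 bp from the next vehicle peak, whereas a treated H3K27ac peak began 275 bp from the AQP7B region and 402 bp from the XPNPEP2 region. The AQP7B region lay 2820800 bp from the start of that gene, and its window overlapped the annotated gene IGSF3P2 and a gene without a symbol. The region at HSPA4, which encodes an HSP70-related chaperone, lay 188894 bp from that gene's start and within the gene FSTL4. Its window touched an exon of a long noncoding RNA. The window at TOPAZ1 and that at XPNPEP2, an aminopeptidase gene, overlapped no annotated gene.

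One NF-κB site is shown as well, because it was the only one of the 5 vehicle-only peaks with the highest RELA fold enrichment at 30 min of TNFα that was not in a tandem repeat. The window of 200 bp around its RELA summit lies at chr2:10097518-10097717, on the + strand of hg38, nearest to CYS1, which encodes the ciliary protein cystin. Capitals mark the match to the NF-κB consensus, searched on both strands. The match starts at chr2:10097559 and the RELA summit is at chr2:10097618. The window shared no base with the vehicle-only peak at chr2:10097218-10097498, and the 300 bp around the centre of that peak held no match.
CYS1: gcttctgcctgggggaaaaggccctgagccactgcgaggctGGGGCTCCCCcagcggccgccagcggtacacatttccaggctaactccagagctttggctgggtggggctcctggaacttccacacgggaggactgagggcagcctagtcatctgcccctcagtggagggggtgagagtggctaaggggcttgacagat

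RELA had a fold enrichment of 6.95 at this site at 30 min of TNFα, and no peak there in the other 9 RELA and RELB lists, which include both vehicle lists. The vehicle H3K27ac peak beside it had a fold enrichment of 3.12 over 281 bp, no FOSL1, and a treated H3K27ac peak 145 bp away. Of all 11249 RELA peaks at 30 min of TNFα, 34.8% held the consensus within 200 bp of sequence around the summit. It was held by 31.0% of the 5700 other vehicle peaks with RELA and by 1 of the 35 vehicle-only peaks with RELA (2.86%, 0.0723 to 14.9). The CYS1 site is that 1, so the printed window is the exception among the 35. Of these 35, 24 lay in tandem repeats, and outside them the count was 1 of 11 (9.09%), with an interval of 0.230 to 41.3 that includes 31.0%. That 31.0% counts all 5700 other vehicle peaks with RELA, of which 22.6% lay in tandem repeats. Their share outside tandem repeats was not computed.

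The values that chose the vehicle-only peaks, and those tied to them, are given as description. The share of vehicle peaks missing was higher where the treated list held fewer peaks. Of all vehicle peaks, 27.8% were missing from the list for TNFα at 30 min, 24.6% from TWEAK at 30 min, 20.2% from TWEAK at 6 h and 15.6% from TNFα at 6 h. These lists held 53861, 55784, 57982 and 61154 peaks in the same order, so time and list size cannot be told apart here. A total of 37377 vehicle peaks recurred in all 4 treated lists, 6303 were missing from 1, 6618 from 2, 4999 from 3 and 4558 from all 4. A region counts as missing when no peak was called there, and signal that stayed under the caller's threshold is not analysed here. The vehicle-only peaks covered 1.54 Mb of the 55.5 Mb of vehicle H3K27ac.

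The vehicle-only peaks had a median length of 296 bp, from 226 to 1222 bp, against 860 bp for the other vehicle peaks. A total of 4094 (89.8%) were under 500 bp, 453 were from 500 bp to under 1000 bp, 11 were longer, and none reached 2000 bp, although 3437 vehicle peaks did. Their fold enrichment over input, which the authors' caller averages over a broad peak, had a median of 2.57 and ran from 1.29 to 4.62, against a median of 3.12 for the other vehicle peaks. When all vehicle peaks were divided into quintiles by fold enrichment, the lowest quintile held 1835 vehicle-only peaks, the next 1812, the middle 770, the fourth 137 and the top quintile 4. The median −log10 q was 2.00 against 6.50, with the highest vehicle-only value at 9.24. A −log10 q under 3 was found for 84.4% of the vehicle-only peaks and for 21.9% of the others.

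**Figure D1:**
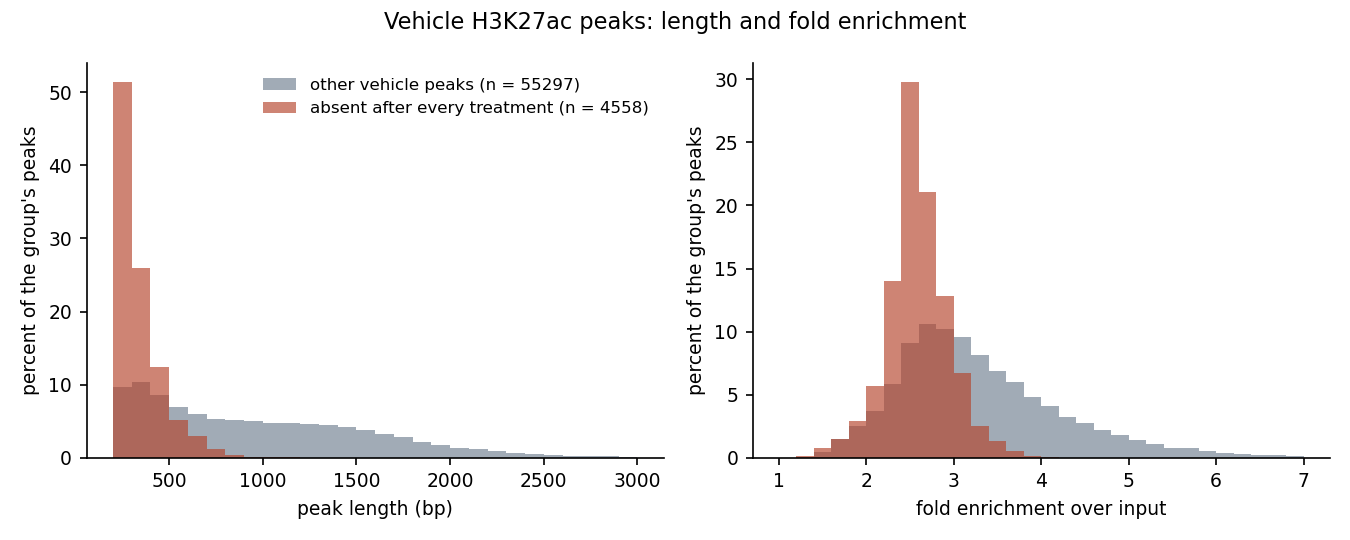
Histograms of peak length in bp (left, bins of 100 bp up to 3000 bp) and of fold enrichment over input (right, bins of 0.2 up to 7), as the percent of each group's peaks; red bars are the 4558 vehicle-only peaks and grey bars the 55297 other vehicle peaks. The red bars crowd under 500 bp and around a fold enrichment of 2.57, where grey bars are also present, and end before 2000 bp.

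The distribution plot shows that the groups overlapped in both values and that the vehicle-only peaks occupied the low end. At the edge of the rule, 203 vehicle-only peaks had a treated peak within 100 bp, the nearest at 1 bp, with a median fold enrichment of 2.53 and a median length of 294 bp. Just outside it, 396 other vehicle peaks were covered by treated peaks over at most 100 bp in every list, with medians of 2.52 and 290 bp. The peaks on either side of the edge thus had nearly the same strength and length.

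Each treated list had such private peaks too. By the same rule, 4405 peaks (8.18%) of the list for TNFα at 30 min overlapped none of the other 4 H3K27ac lists, as did 5592 (9.14%) after 6 h of TNFα, 4459 (7.99%) after TWEAK for 30 min and 3186 (5.49%) after TWEAK for 6 h. The vehicle share of 7.62% lay inside this range. The private peaks of the treated lists were also short and weak, with median lengths of 259 to 300 bp and median fold enrichments of 2.53 to 2.75. The medians of the vehicle-only peaks, 296 bp and 2.57, fell inside both ranges.

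The 10 vehicle-only peaks with the highest fold enrichment show what kind of loci were at the top of this weak set. The first was at chr12:71392809-71393191, within an intron of TSPAN8, a tetraspanin of epithelial cells, and 46798 bp from the start of LGR5, the R-spondin receptor that marks intestinal stem cells. Its fold enrichment was 4.62, its −log10 q 8.75, it had neither FOSL1 nor RELA nor RELB, and the nearest H3K27ac peak of any treated list was 110319 bp away. An isolated peak of the same kind lay in an intron of CXCL13, the chemokine that attracts B cells, at chr4:77538441-77538796. Its H3K27ac fold enrichment was 3.86, it held FOSL1 at 18.1-fold, and no treated H3K27ac peak lay within 40215 bp.

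At other loci a treated H3K27ac peak lay close by, although it did not overlap the vehicle-only peak. The region nearest to PREX1, a Rac exchange factor, had a fold enrichment of 4.07 and FOSL1 at 12-fold, with a treated peak 195 bp away. The region nearest to DCLK3, a kinase gene, had 3.99 with FOSL1 at 9.0-fold and a treated peak at 243 bp, and that nearest to TXNRD1, which encodes thioredoxin reductase, had 3.84 with FOSL1 at 7.25-fold and a treated peak at 116 bp. The region in SRPX2 and SYTL4, with 3.85, had a treated peak at 94 bp and no FOSL1. The regions nearest to SPAG17 (4.06), a gene of motile cilia, to UBQLN2 (3.92), which encodes a ubiquitin-binding shuttle, and to ZNF579 (3.84), a zinc finger gene, had treated peaks at 695, 317 and 185 bp. The nearest other vehicle peak was at 327 bp for DCLK3 and 284 bp for UBQLN2, and between 1566 and 70729 bp for the PREX1, TXNRD1, SRPX2, SPAG17 and ZNF579 regions. Of these 10 peaks, 4 held FOSL1, and the only one in a RELA or RELB list was at ZNF579, at 30 min of TNFα.

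The 5 longest vehicle-only peaks had low fold enrichments. They were 1222 bp within SPATA5 (2.51), 1216 bp nearest to LMOD2 (2.89), 1158 bp nearest to CCDC68 (2.93), 1151 bp nearest to NTF3 (2.07) and 1146 bp nearest to IL1RAPL1 (2.49). LMOD2 nucleates actin filaments in muscle, NTF3 is a neurotrophin and IL1RAPL1 is a protein of synapses. FOSL1 was present at SPATA5 and LMOD2, at 3.86-fold and 5.34-fold, and was not called at the other 3.

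The vehicle-only peaks were distal. Only 121 of them (2.65%, 2.21 to 3.16) came within 1 kb of the start of a protein-coding gene, against 20.3% of the other vehicle peaks and 18.9% of all. Introns held 2614 (57.3% against 39.2% of the others), exons 451 (9.89% against 15.2%) and the space between genes 1372 (30.1% against 25.3%). The median distance to a protein-coding gene start was 58149 bp, against 33053 bp. Short and weak peaks were less often at gene starts in general. In the 12 classes of length and fold enrichment that contain vehicle-only peaks, and with the other peaks weighted to the same class sizes, the share of the others at a gene start was 5.56%, above 2.65%, and the vehicle-only share was lower in 11 of 12 classes. All intervals here are exact binomial ones that cover the counting of regions only, since regions are not replicates.

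At gene starts, the highest fold enrichment was 3.84 at HCRTR1, the orexin receptor, at chr1:31617992-31618252, with its centre 436 bp from the start. SYP, the vesicle protein synaptophysin, followed with 3.70, CHRM1, a muscarinic acetylcholine receptor, with 3.50, and SCN8A, a voltage-gated sodium channel, with 3.45. The next were SEMA6C, a semaphorin (3.33), ITIH4, a plasma protein made in the liver (3.29), LENG1 (3.26), MTM1, the phosphatase myotubularin (3.24), RNF4, a SUMO-targeted ubiquitin ligase (3.22), and ETNPPL, a phospholyase (3.20). None of these 10 held FOSL1, RELA or RELB. At 8 of the 10, the nearest treated peak was between 3905 and 77176 bp away, and at LENG1 and MTM1 it lay at 388 and 316 bp. Of the 121 peaks at gene starts, 18 (14.9%) met FOSL1, close to the 15.5% of all vehicle-only peaks. That share was well below the 57.6% of all other vehicle peaks that met FOSL1. Gene starts made up 22.1% of the 31838 other vehicle peaks with FOSL1 and 20.3% of all other vehicle peaks.

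The median distance from a vehicle-only peak to the nearest peak of any treated list was 5443 bp, and 35.5% had one within 2 kb, 66.5% within 10 kb. The nearest vehicle peak that was not itself vehicle-only lay at a median of 9949 bp, with 19.9% within 2 kb and 50.2% within 10 kb. Any other vehicle peak lay at a median of 8561 bp, against 6886 bp for the other vehicle peaks. Of the vehicle-only peaks, 378 stood in 189 runs of 2 and 15 in 5 runs of 3, with no other vehicle peak between them and gaps of at most 10 kb. Vehicle-only peaks were 7.62% of all vehicle peaks, and the number of runs that this share alone would give was not computed. The runs of 3 were nearest to PNMA8A, TTC7A, NTAQ1, ARIH1 and GRHL2, spanned 6182 to 18743 bp, and had fold enrichments between 2.21 and 2.82. The run at ARIH1, a ubiquitin ligase gene, and that at GRHL2, which encodes a master regulator of epithelial identity, lay within the gene. By chromosome, the vehicle-only share of vehicle peaks ran from 4.67% (3.8 to 5.66) on chromosome 19 to 8.87% (7.84 to 9.99) on chromosome 8.

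FOSL1 was not used to choose the peaks, and it was measured in the same vehicle condition. It overlapped 708 vehicle-only peaks (15.5%, 14.5 to 16.6), against 54.4% of all vehicle peaks and 57.6% of the others. Short and weak peaks met FOSL1 less often in general. Among other vehicle peaks weighted to the same classes of length and fold enrichment, the share was 27.8%, and the vehicle-only share was below that of the others in all 12 classes. With a fixed window of 500 bp on either side of the peak centre, which removes the difference in length, FOSL1 was found at 32.4% of the vehicle-only peaks (31.0 to 33.8), 63.9% of the others and 50.7% of the others weighted by class.

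**Figure D2:**
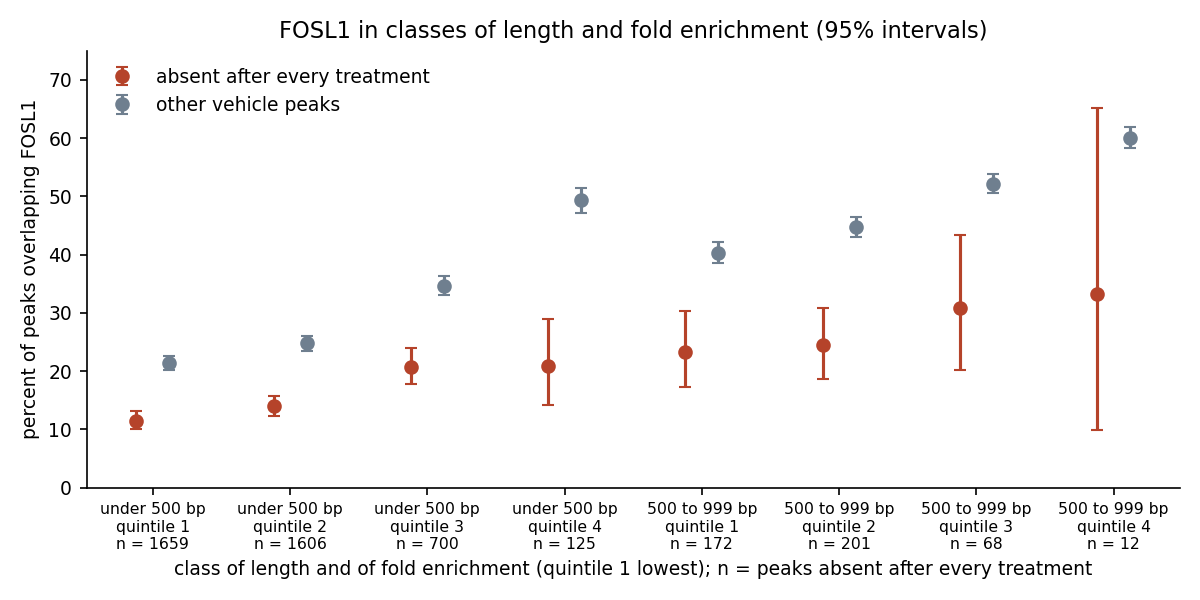
Percent of peaks that overlap FOSL1 in 8 classes of peak length and quintile of fold enrichment (horizontal axis, with the number of vehicle-only peaks), for vehicle-only peaks (red) and other vehicle peaks (grey); bars are exact 95% intervals. Red lies under grey in all 8 classes, and the intervals meet only in the class with 12 vehicle-only peaks.

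In the plot by class, the largest class, peaks under 500 bp in the lowest quintile of fold enrichment, had FOSL1 at 11.5% of 1659 vehicle-only peaks (10.0 to 13.1) and at 21.4% of 4999 others (20.2 to 22.5). In the fourth quintile and the same length it was 20.8% of 125 (14.1 to 29.0) against 49.4% of 2093 (47.2 to 51.5). In both groups, the peaks under 500 bp in the plot had higher FOSL1 shares in higher quintiles.

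Where FOSL1 was present, its median fold enrichment was somewhat lower than at the other vehicle peaks. At vehicle-only peaks it was 5.34 (quartiles 4.2 and 7.5), against 5.73 (4.38 and 8.83) at the other vehicle peaks with FOSL1. The whole FOSL1 list of 58828 peaks had 4.98. With peaks at gene starts left out the medians were 5.34 and 6.38, and among peaks under 500 bp 5.34 and 5.83. The FOSL1 summit lay inside the H3K27ac peak at 299 of 708 vehicle-only peaks (42.2%) and at 75.6% of the others, so at most vehicle-only peaks with FOSL1 the summit lay outside the acetylated interval. The remaining peak of the 5 with the highest FOSL1 enrichment, at 19.8-fold, lay in an exon of ANK1, a membrane skeleton gene, nearest to the start of NKX6-3. The vehicle-only peaks with FOSL1 had a median length of 326 bp and a median H3K27ac fold enrichment of 2.65, and those without had 292 bp and 2.55.

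The sequence under FOSL1 also differed in make-up. In the 200 bp around the FOSL1 summit, TGANTCA was found at 432 of 708 vehicle-only peaks (61.0%, 57.3 to 64.6), at 43.7% of the 31838 other vehicle peaks with FOSL1 (43.1 to 44.2) and at 44.4% of all FOSL1 peaks. With peaks at gene starts left out, the shares were 62.0% (58.3 to 65.7) and 51.8% (51.2 to 52.5), and among peaks under 500 bp they were 62.6% (58.6 to 66.6) and 42.1% (40.7 to 43.4). The printed windows, which had 2 copies each, belong to this majority. The CRE motif TGACGTCA, which the TGANTCA pattern does not contain, was found at 1 of the 708 (0.141%) against 0.967% of the others. Shares for TEAD (GGAATG) were 16.4% and 15.5%, for forkhead factors (TGTTTAC) 6.21% and 6.83%, for GATA factors (AGATAA) 13.7% and 9.11%, and for the NF-κB consensus 0.706% and 4.32%. All these shares are for windows around the FOSL1 summit, which lay outside the H3K27ac peak at most of the 708. In the 300 bp around the centre of the H3K27ac peak, TGANTCA was found at 183 of the 708 (25.8%). There it was found at 22.6% of the other vehicle peaks with FOSL1. A match is a run of letters and not a measured site.

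In the 300 bp around the centre of the H3K27ac peaks themselves, whether or not FOSL1 was there, TGANTCA was found at 15.2% of the vehicle-only peaks (14.2 to 16.3), 17.1% of the others and 16.9% of all vehicle peaks. Weighted by class, the others had 11.4%, so relative to peaks of like length and strength the order turned. The AGATAA motif was found at 16.9% (13.8% of all vehicle peaks), GGAATG at 17.8% (17.2%), TGTTTAC at 5.11% (5.02%), TGACGTCA at 0.110% (0.453%) and the NF-κB consensus at 3.66% (6.07%). Weighted by class, the other vehicle peaks held AGATAA at 15.5%, GGAATG at 16.7%, TGTTTAC at 4.47%, TGACGTCA at 0.114% and the NF-κB consensus at 4.41%. The median GC content of these windows was 44% against 48.3% for the others, and its part in these shares was not tested.

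The private peaks of the other lists give a scale for these FOSL1 values. FOSL1 from vehicle cells met 9.06% (8.23 to 9.94) of the private peaks at 30 min of TNFα, 9.67% and 10.3% of those after TWEAK for 30 min and 6 h, and 13.3% (12.4 to 14.2) at 6 h of TNFα, and 15.5% (14.5 to 16.6) of the vehicle-only peaks. Whole lists had 52.3 to 54.4%. The vehicle-only share was the highest of the 5, and its interval was clear of the other 4. At the FOSL1 summits, the AP-1 motif split the lists in another way: 61.0% in vehicle, and after 6 h 59.1% (55.5 to 62.7) with TNFα and 47.0% (41.4 to 52.5) with TWEAK, but after 30 min 24.6% (20.4 to 29.1) and 21.1% (17.4 to 25.3). The median FOSL1 fold enrichment followed the same split, at 5.34, 5.34 and 4.87 against 4.29 and 4.30. The 5 lists do not share private peaks by construction, and with 1 merged list per condition a treatment and its libraries cannot be told apart.

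**Figure D3:**
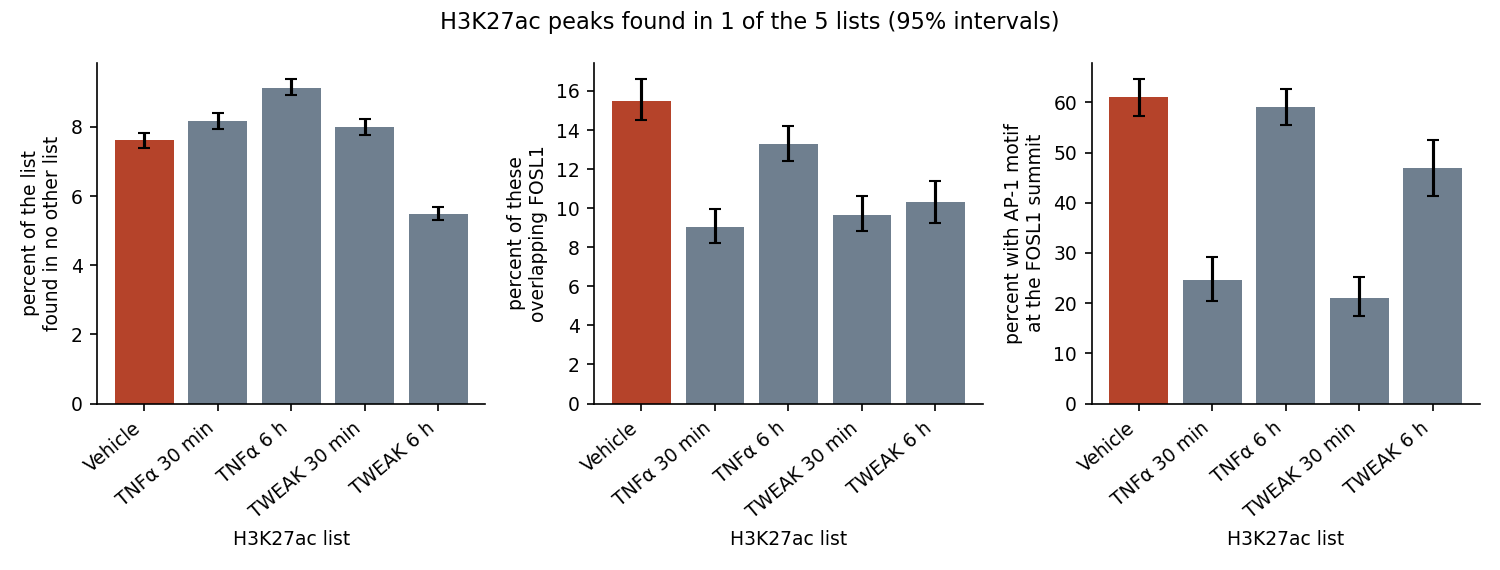
H3K27ac peaks found in 1 of the 5 H3K27ac lists, by list (vehicle in red, treated lists in grey): percent of the list's peaks (left), percent of these private peaks that overlap FOSL1 (middle) and percent of the FOSL1 summits at them with TGANTCA within the 200 bp around (right), with exact 95% intervals. The vehicle bar is the highest in the middle and right panels, with 15.5% and 61.0%, and the bars for 30 min are the lowest on the right.

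The plot of private peaks shows that the vehicle list was inside the range of the treated lists for the percent of private peaks and at the top for FOSL1. On the right, the interval for 6 h of TNFα overlaps that for vehicle.

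RELA and RELB met few vehicle-only peaks. Any of their 10 lists overlapped 78 of 4558 (1.71%, 1.35 to 2.13), against 11.6% of the other vehicle peaks, 10.9% of all and 7.71% of the others weighted by class, and the vehicle-only share was lower in all 12 classes. RELA at 30 min of TNFα, the largest of these lists, overlapped 35 vehicle-only peaks (0.768%, 0.535 to 1.07), where it overlapped 9.58% of all vehicle peaks and 10.3% of the others. Among the private peaks of the TNFα list at 30 min, the same RELA list met 292 (6.63%), after TNFα for 6 h 133 (2.38%), and after TWEAK 98 (2.20%) at 30 min and 37 (1.16%) at 6 h. The vehicle-only value was the lowest of the 5, next to that for 6 h of TWEAK.

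The other RELA lists overlapped 22 vehicle-only peaks in vehicle (0.483%, with 2.40% of all vehicle peaks), 31 after TNFα for 6 h (0.680%, with 5.77% of all), 22 after TWEAK for 30 min (0.483%, with 2.63%) and 33 after TWEAK for 6 h (0.724%, with 2.57%). The RELB lists overlapped 37 in vehicle (0.812%, with 2.63% of all vehicle peaks), 22 at 30 min of TNFα (0.483%, with 2.21%), 30 after TNFα for 6 h (0.658%, with 2.59%), 25 after TWEAK for 30 min (0.548%, with 1.99%) and 22 after TWEAK for 6 h (0.483%, with 3.68%). The vehicle-only share was below that of all vehicle peaks in each of the 10 lists, and it ran from 0.483% to 0.812%.

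**Figure D4:**
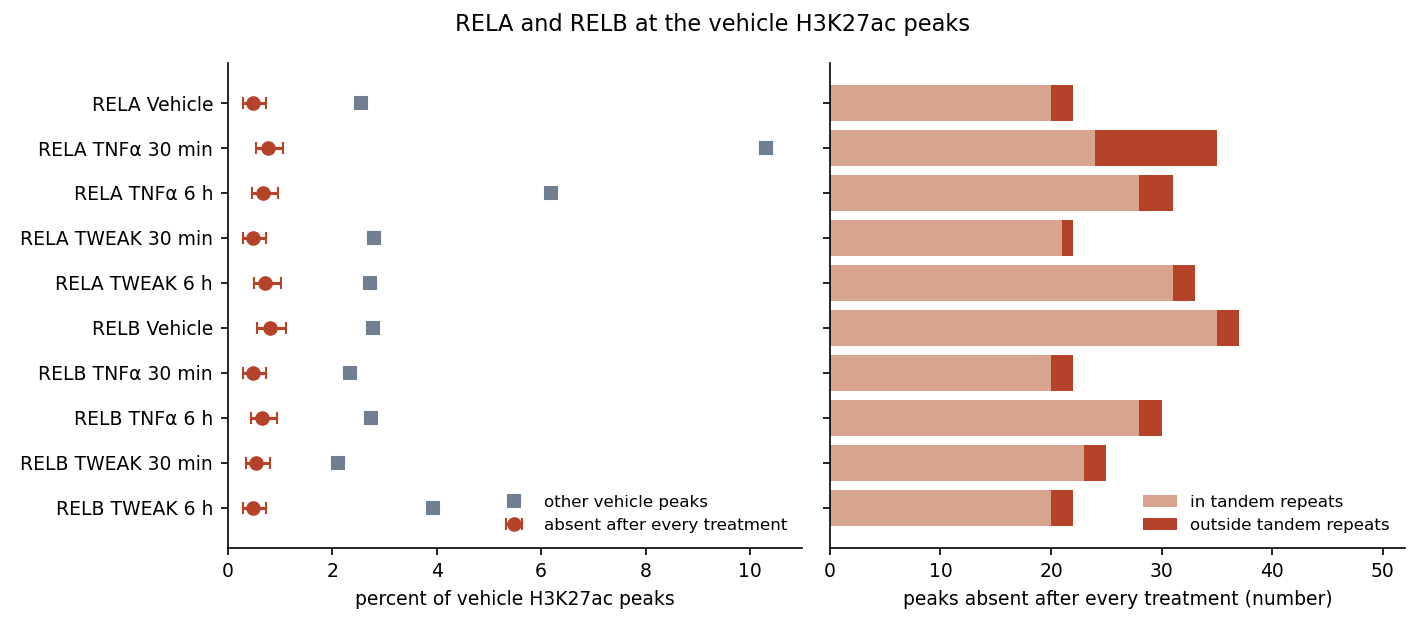
Left, percent of vehicle-only peaks (red, with exact 95% intervals) and of other vehicle peaks (grey squares) that overlap each of the 10 RELA and RELB lists; right, number of vehicle-only peaks in each list, divided into those in tandem repeats (pale) and outside them (red). The red points stay under 1% in every list, and the pale part makes up most of every bar, with 11 of 35 peaks outside tandem repeats at 30 min of TNFα.

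As the right side of the RELA and RELB plot shows, most of these meetings were in tandem repeats, defined as 1000 bp of sequence in which at least 40% of bases equal the base at 1 shift of up to 400 bp. Tandem repeats held 183 of all vehicle-only peaks (4.01%, against 4.65% of the others) but 64 of the 78 with RELA or RELB. In the RELA list at 30 min of TNFα they held 24 of 35 vehicle-only peaks (68.6%) against 22.6% of the other vehicle peaks with RELA. In the remaining 9 lists they held 90.3% to 95.5% of the vehicle-only peaks and 39.8% to 96.0% of the other vehicle peaks. The other vehicle peaks had the higher repeat share in 2 RELB lists, with 95.2% against 90.9% after TNFα for 30 min and 96.0% against 92.0% after TWEAK for 30 min. The part of repeats in the RELA and RELB calls was not tested.

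All 5 vehicle-only peaks with the highest RELB enrichment at 6 h of TWEAK were such repeats, as were 4 of the 5 with the highest RELA enrichment at 30 min of TNFα, the exception being the CYS1 site printed above. The region at chr21:10692674-10692959, for which TPTE is the nearest named gene at 171264 bp, was in all 10 lists, with RELA at 11-fold in vehicle and 10.9-fold at 30 min of TNFα, and RELB at 8.78-fold in vehicle and 7.53-fold at 6 h of TWEAK. A second region nearest to TPTE, at chr21:11859422-11859651, was also in all 10 lists, with RELA at 8.07-fold in vehicle and 6.10-fold at 30 min of TNFα. The region nearest to ZNF254 (668605 bp away) was in 9 lists, that nearest to ZNF33B (732074 bp) in 8 and that nearest to PLD5P1 (2133473 bp) in 7. The RELB enrichment of these 5 regions at 6 h of TWEAK was between 6.75-fold and 7.53-fold. At ZNF254, RELB was present in vehicle (5.13-fold) as well as at 6 h of TWEAK (7.22-fold).

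Outside tandem repeats, 14 vehicle-only peaks met RELA or RELB (0.307% of all), 12 of them in a treated list and in neither vehicle list. Among peaks outside tandem repeats, these 14 were 0.320% of the vehicle-only peaks, where 9.13% of the other vehicle peaks met RELA or RELB. Those named here were chosen after their values were seen. Of these 14, 9 were in the RELA list at 30 min of TNFα alone, among them those nearest to TRIT1 (RELA at 4.62-fold), CYS1 (6.95-fold), BHLHE40 (5.47-fold), ZNF608 (4.62-fold), SPDYE1 (4.37-fold), CDKN3 (3.66-fold), COMP (3.85-fold) and ZNF579 (4.53-fold). BHLHE40 encodes a transcriptional repressor of the clock and of stress responses, and CDKN3 a phosphatase of cyclin-dependent kinases. The peak at BHLHE40 had its centre 367 bp from the gene's start and held FOSL1, with a H3K27ac fold enrichment of 1.79. The peak nearest to ARRB1, which encodes β-arrestin 1, was in the RELB list at 6 h of TWEAK alone, at 5.50-fold. In total, 46 vehicle-only peaks (1.01%) met both FOSL1 and RELA or RELB, against 9.83% of the other vehicle peaks, and 3818 (83.8%) met neither, against 40.6% of the others.

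By gene, the vehicle-only peaks were thinly spread. Within protein-coding genes and 10 kb on either side there were 41302 vehicle peaks, of which 2911 (7.05%, 6.80 to 7.30) were vehicle-only, in 2685 of 16381 genes with any vehicle peak. Long genes held the most. NAALADL2 and PDE4D, a cyclic AMP phosphodiesterase, had 8 each, of 38 and 73 vehicle peaks. ERBB4, a receptor tyrosine kinase of the EGFR family, had 6 of 12, with fold enrichments from 2.48 to 2.62 and no FOSL1, and PDE10A, another phosphodiesterase, had 6 of 33. KANK1 (5 of 28), PALLD, an actin-bundling protein (5 of 37), TANC2 (5 of 17), ADGRG6, an adhesion G protein-coupled receptor (5 of 14), EGLN3, a HIF prolyl hydroxylase (5 of 27), and HDAC9, a histone deacetylase (5 of 29), followed. These 10 genes were 144 to 1553 kb long, and the vehicle-only share of their peaks was 50.0% in ERBB4 and 11% to 35.7% in the rest.

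For 137 genes every vehicle peak was vehicle-only, but 127 of these had 1 peak alone. The 10 genes with 2 such peaks, named after the count was seen, were CCDC178, CXCR5, LYPD1, OR10V1, OR5B3, SEMA5B, SLC6A20, SMIM38, SPDYE3 and TTLL2. CXCR5 is the receptor of CXCL13 on B cells, and OR10V1 and OR5B3 are olfactory receptors. The fold enrichment of the peaks at these genes was between 2.08 and 3.50.

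Pathway lists were described by their counts alone, beside the 7.05% of all protein-coding genes. NF-κB subunits, inhibitors and regulators had 2 vehicle-only of 87 vehicle peaks (2.30%, 0.280 to 8.06), 1 each at BIRC3, an inhibitor of apoptosis (1.75-fold), and MAP3K14, which encodes NIK (1.98-fold). Cytokines and chemokines had 0 of 50 (up to 7.11%). TNF receptors and their adaptors had 3 of 59 (5.08%), at TNFRSF10B, a TRAIL receptor, TNFRSF11A, the RANKL receptor, and TNFRSF21. These 3 lists, the genes of the applied signals, thus contributed 5 vehicle-only peaks, each with no FOSL1.

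AP-1 and related genes had 6 of 85 (7.06%), including 1 of 4 peaks at FOSL1 itself (1.53-fold) and 1 of 8 at FOSL2 (1.29-fold, the lowest of all vehicle-only peaks). The peak at ATF7 (2.44-fold) was the only one of the 6 with FOSL1 binding. YAP and TEAD pathway genes had 10 of 140 (7.14%), with 3 of 10 peaks at AMOTL1, a YAP-binding angiomotin, 2 at TEAD1 and 2 at PTPN14. Pancreatic and epithelial lineage factors had 10 of 113 (8.85%, 4.33 to 15.7), with 4 of 24 at GLIS3, a factor of beta cell development, 2 of 20 at TP63, the basal lineage factor, and 1 each at GATA6, SOX9 and KLF5, among others. Epithelial junction and keratin genes had 13 of 161 (8.07%), 4 of them at GRHL2 of 21 vehicle peaks, and at KRT8 1 of 10 peaks. SOX9 had 2 vehicle peaks, so the vehicle-only one was 1 of 2, whereas at GATA6 it was 1 of 3 and at KLF5 1 of 4.

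EGFR and MAPK genes had 11 of 132 (8.33%), 6 of them at ERBB4, 2 at SPRED1, a RAS pathway inhibitor, and 1 of 11 at EGFR. Genes of epithelial-mesenchymal transition had 4 of 107 (3.74%), at TWIST2, CDH2, ITGAV and ITGB1, and metabolic genes 6 of 144 (4.17%), among them 1 of 8 at HK2, which encodes a hexokinase. Ribosomal protein genes had 6 of 182 (3.30%). Markers of other cell types had 6 of 73 (8.22%), 3 of 14 at SYT1, the synaptic calcium sensor synaptotagmin, and 1 at SYP. The interval of every list up to here included 7.05%, other than that of the ribosomal protein genes, whose upper bound was 7.04%.

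The last 2 gene lists came from the study's own expression data in this cell system and are not independent of it. The first joins genes regulated by both cytokines with genes specific to TWEAK. It had 103 vehicle-only of 1968 vehicle peaks (5.23%, 4.29 to 6.31), with 492 of 626 names matched. Genes called specific to TNFα had 47 of 1090 (4.31%, 3.19 to 5.69), with 263 of 310 matched. Genes with 3 vehicle-only peaks were CREB5 (of 5 vehicle peaks), a CREB family factor, and MGLL (of 18), a lipase, in the first list, and BCR (of 17), CELSR1 (of 23), a planar polarity cadherin, and SHANK2 (of 18), a synaptic scaffold, in the second.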

How the data were processed

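Peak lists were deposited for 48 samples of L3.6pl cells in 16 conditions, 1 list per condition. Reads had been aligned to hg38 by the authors (Bowtie2 2.5.0), who called peaks with MACS2 (version not given) without a shifting model, against input, with broad peaks for H3K27ac. SAMtools 1.18 and deepTools 3.3.2 are named in the submitters' processing notes. Each peak has a deposited fold enrichment, a ratio over input computed by the authors' caller, and a deposited −log10 q. In broad peaks both are averages over the region. The stated broad cutoff was a q of 0.05, but the vehicle list holds peaks with a q of up to 0.0960. The 32 columns of scores and −log10 p were not used. The depth per sample is unknown.

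Peaks on chromosomes 1 to 22 and X were compared with own code (Python 3.11.15, numpy 2.4.6, pandas 2.3.3, scipy 1.17.1, pysam 0.24.0, with plots in matplotlib 3.10.9), tested on simulated intervals and sequences. An overlap needs 1 bp. Positions were taken from GENCODE 44 and the hg38 sequence, in the order gene start within 1 kb, exon, intron, intergenic. Other vehicle peaks were weighted to the same classes of length (4) and quintile of fold enrichment (5), in classes with at least 20 of them. Shares have exact (Clopper-Pearson) 95% intervals. No test was made, since each condition has 1 list. The repeat share planned from soft masking was not computed, as the genome copy used here is in capitals, and tandem repeats were found by self-match.

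Regions and genes named are the 10 vehicle-only peaks with the highest fold enrichment, the 5 longest, the 5 with the highest FOSL1, RELA (30 min of TNFα) and RELB (6 h of TWEAK) enrichment, the 10 strongest at gene starts, the runs of 3, the 10 genes with the most, and listed genes with 3 or more. A few others are marked as named after their values were seen, or illustrate a list. The members and the 14 gene lists were chosen with earlier results of these data known. The alternatives tried changed the overlap rule, the thresholds, the length, tandem repeats and the lists in the rule. A few results that name items withheld for evaluation are not reported here.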

Additional observations from a re-analysis of the deposited data

How the results depend on the processing

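No paired analysis was possible because each condition has 1 merged list, and no replicate could be left out. Of 47 alternatives to 4 shares, 20 stayed within the 95% interval of the reported value and 27 did not, but in all 36 that concern FOSL1, gene starts, or RELA and RELB the vehicle-only share stayed below that of the other vehicle peaks. The share of vehicle peaks absent from all 4 treated lists, reported as 7.62%, was the least stable. It was 5.76% when a treated peak within 500 bp counted as present, 4.92% within 2000 bp, 11.1% when treated peaks had to cover 50% of a vehicle peak, and 21.5% against treated peaks with a −log10 q of at least 3. It was 1.61% among vehicle peaks with a −log10 q of at least 3 and 1.16% among those of at least 500 bp. Without 1 treated list in the rule it was 8.54% (TNFα 30 min), 11.9% (TNFα 6 h), 8.94% (TWEAK 30 min) and 9.41% (TWEAK 6 h). The FOSL1 share, reported as 15.5%, became 20.5% with the 50% rule, 22.6% with a vehicle −log10 q of at least 3, 25.6% in peaks of at least 500 bp, 19.4% without TNFα 6 h, 16.7% without TWEAK 6 h, 22% with stricter treated peaks and 6.56% (44.5% of the others) with the FOSL1 summit inside the peak. The share at gene starts, reported as 2.65%, became 5.36% with a vehicle −log10 q of at least 3, 3.23% both in peaks of at least 500 bp and without TWEAK 6 h, and 3.55% within 2 kb. The RELA or RELB share, reported as 1.71%, became 4.09% with a vehicle −log10 q of at least 3, 0.862% in peaks of at least 500 bp, 0.320% outside tandem repeats, 2.5% without TNFα 30 min, 2.30% without TWEAK 30 min and 2.33% with stricter treated peaks. Apart from the subsets and rules that define these alternatives, the cause was not tested.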
